A study of Mus musculus with 34 samples.

Results

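YAP1 and its relative TAZ (gene Wwtr1) carry signals on cell contact, shape and adhesion into the nucleus, where they bind DNA through the TEAD proteins and raise transcription of a set of target genes. The Hippo kinases, LATS1 and LATS2 among them, phosphorylate YAP1 and TAZ and keep them in the cytoplasm, so YAP1 and TAZ activity can change with no change in their own mRNA. In fibroblasts spread on a stiff surface the targets are strongly expressed, and in mouse embryonic stem (ES) cells YAP1 and TEAD2 are known to be present.

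The 10 genes described here are the transducers Yap1, Wwtr1, Tead1 and Tead2, the targets Ccn1 (formerly Cyr61), Ccn2 (formerly Ctgf), Ankrd1, Amotl2 and Axl, and Lats2, which is both a Hippo kinase and a target. They were chosen by their signals in these same RNAs, so their values are given as a description and without p-values. All probe sets whose single annotated symbol is one of the 10 were taken. This gave 24 probe sets, 21 on the Affymetrix array MOE430A and 3 on MOE430B. Of these, 19 were bright enough to enter the tests and represented all 10 genes, among 30373 probe sets and 14105 genes tested in all. The 5 that were too dim were all Lats2 probe sets. A probe set shared by Lats2 and another gene was left out, and 2 probe sets annotated as Taz were not used because that symbol belonged to tafazzin.

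RNA came from C2 and D4, a pair of ES cell lines made from blastocysts of C57BL/6 mice, with no genetic change named in the labels. Each line was sampled as early-passage cells, and as late-passage cells of 2 kinds that the labels call attached and detached, without naming the surface. Each of the 6 groups had 3 RNAs except detached D4, which had 2 (replicates 1 and 3), for 17 RNAs on 34 arrays. Early-passage cells were cultured in DMEM with 15% FBS and had low chimerism without germline transmission. The medium of the late-passage cells is given as Thromb-XTX-WES, and these cells had high chimerism with germline transmission. Passage, medium and chimerism therefore cannot be told apart in any comparison of late with early. All cells received LIF, pyruvate, non-essential amino acids, β-mercaptoethanol and glutamine and were kept at 37 C in 5% CO2. Primary mouse embryonic fibroblasts (MEF) served as feeders throughout, and the labels list them as the contaminant, with an ES cell purity of about 90% or more. For harvest, cells were loosened with a light trypsin treatment and the suspension was replated for 1 hour so that feeders would settle. Whether replicate RNAs were taken from different cultures is not stated, and the errors and p-values may therefore reflect technical spread alone.

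Genes that define ES cells were bright in every group. The mean log2 signal over 8 such genes, Pou5f1, Nanog and Sox2 among them, lay between 13.35 and 13.88 in the 6 groups. Genes that define fibroblasts also gave signals. Over 17 tested fibroblast genes of a list of 24, such as Col1a1, Thy1 and Bgn, the mean log2 signal was 11.0 ± 0.37 (SD, n = 3) in early C2, 10.71 ± 0.11 in attached C2 and 9.13 ± 0.42 in detached C2. In D4 it was 11.25 ± 0.21, 10.19 ± 0.39 and 8.78 ± 0.17 (n = 2 for the last). The lowest single value of these 17 genes in a group lay between 5.2, in detached D4, and 8.1, in attached C2. Without detection calls, such values cannot show whether the dimmest of these genes stood above background. In a bulk RNA, fewer cells of a type and less RNA per cell cannot be told apart. The arrays of 2 RNAs stood apart. On MOE430A the dimmest 5% of the signals of attached C2 replicate 1 reached up to 109, where no other array exceeded 37.65. In attached D4 replicate 3 the 3' to 5' signal ratio of Actb on MOE430A, a sign of RNA integrity, was 1.84 against at most 1.21 elsewhere. That array was also the only one logged with a different protocol, so RNA integrity and protocol cannot be told apart here.

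Promoter sequences are shown for the targets whose signals differed between the late-passage states, and for Yap1, whose attached and detached signals overlapped, because TEAD proteins read a short motif. They come from RefSeq on GRCm38.p6 and run from 250 bases before to 50 bases after the annotated start, on the gene's strand. Capitals mark GGAATG, or CATTCC where the motif lies on the opposite strand. The Ccn1 window is chr3:145649936-145650235 (minus strand), that of Ankrd1 is chr19:36119795-36120094 (minus), that of Amotl2 is chr9:102717554-102717853 (plus), that of Axl is chr7:25788684-25788983 (minus) and that of Yap1 is chr9:8004547-8004846 (minus).
Ccn1: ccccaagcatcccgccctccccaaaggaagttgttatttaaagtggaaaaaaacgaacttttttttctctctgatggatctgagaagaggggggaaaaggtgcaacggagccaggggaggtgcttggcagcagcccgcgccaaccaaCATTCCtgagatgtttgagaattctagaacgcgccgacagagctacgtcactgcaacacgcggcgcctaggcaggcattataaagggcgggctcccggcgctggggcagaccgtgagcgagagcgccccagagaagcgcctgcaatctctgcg
Ankrd1: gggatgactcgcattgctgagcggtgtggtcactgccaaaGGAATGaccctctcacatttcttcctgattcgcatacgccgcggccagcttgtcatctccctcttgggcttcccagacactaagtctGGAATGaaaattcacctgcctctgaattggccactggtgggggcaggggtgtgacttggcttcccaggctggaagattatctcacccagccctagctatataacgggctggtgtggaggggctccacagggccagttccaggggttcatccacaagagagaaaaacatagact
Amotl2: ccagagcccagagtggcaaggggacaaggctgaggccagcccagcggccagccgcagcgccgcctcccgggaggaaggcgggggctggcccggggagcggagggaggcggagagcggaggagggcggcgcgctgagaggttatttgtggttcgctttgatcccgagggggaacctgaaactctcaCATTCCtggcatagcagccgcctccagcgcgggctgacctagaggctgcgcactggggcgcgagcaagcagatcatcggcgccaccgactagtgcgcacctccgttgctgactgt
Axl: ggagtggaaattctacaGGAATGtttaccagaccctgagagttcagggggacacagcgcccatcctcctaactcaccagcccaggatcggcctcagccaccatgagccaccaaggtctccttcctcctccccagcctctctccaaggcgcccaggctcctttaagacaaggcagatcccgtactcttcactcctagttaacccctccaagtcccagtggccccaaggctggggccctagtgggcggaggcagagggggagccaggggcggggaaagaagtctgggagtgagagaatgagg
Yap1: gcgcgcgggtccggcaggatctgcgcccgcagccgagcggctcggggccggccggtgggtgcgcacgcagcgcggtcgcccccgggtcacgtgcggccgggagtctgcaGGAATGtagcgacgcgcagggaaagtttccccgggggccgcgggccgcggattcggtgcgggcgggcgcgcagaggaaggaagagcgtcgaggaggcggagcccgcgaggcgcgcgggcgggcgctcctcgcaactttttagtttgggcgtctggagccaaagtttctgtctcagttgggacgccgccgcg

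The motif began 103 bases before the start in Ccn1 and 65 bases before it in Amotl2, in both on the opposite strand. It began 210 and 123 bases before the start in Ankrd1, 233 in Axl and 141 in Yap1. The reference table held windows for 8 of the 10 genes, Ccn2 and Tead1 not among them, and 7 of these 8 genes had the motif on either strand in at least 1 window, Tead2 being the exception. Counted by window, 8 of the 10 windows of these genes held it, and the Wwtr1 windows overlapped and held the same match. Over all 32851 windows of the same length, 14.7% held it. A match is a description of these letters and no evidence of binding, and Yap1 and Wwtr1 carried it as well as the targets. No binding was measured in these RNAs.

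All values below are log2(signal + 16) of one probe set, and all differences are on that scale, which understates the change of dim genes. Signals of different probe sets are not set against each other, since their brightness depends on the probes. A probe set was called where limma's adjusted p over all probe sets of its array type was under 0.05.

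**Figure D1:**
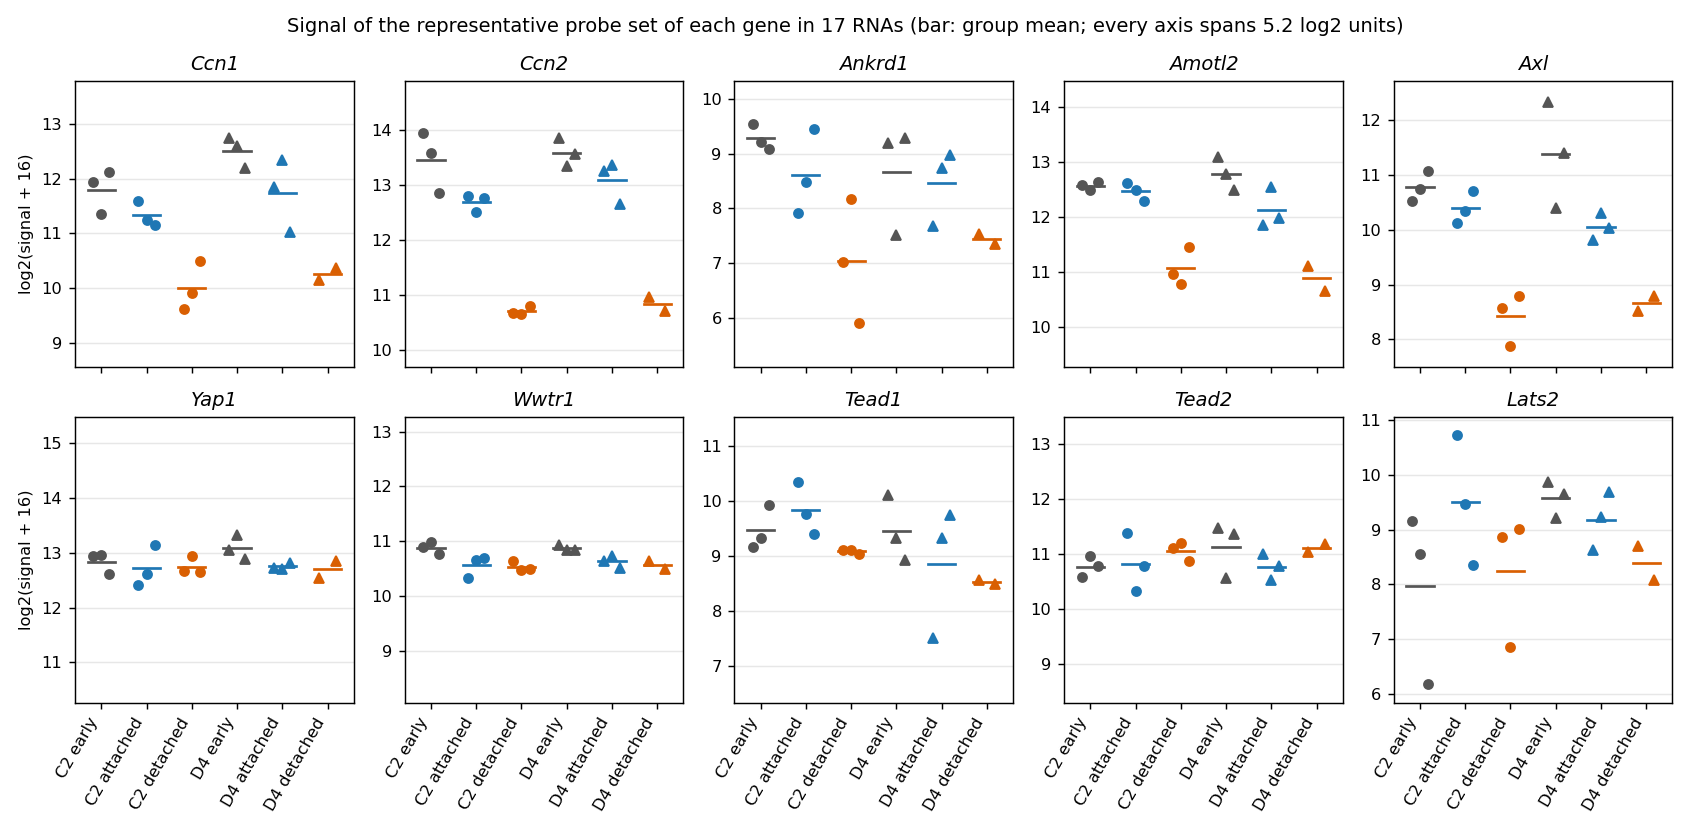
Signal, as log2(signal + 16), of the representative probe set of each of the 10 genes in every RNA, by line (circles C2, triangles D4) and state, with a bar at the group mean. For Ccn1, Ccn2, Amotl2 and Axl every detached RNA (orange) lies below every other RNA, while Yap1, Wwtr1 and Tead2 stay within narrow bands.

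Ccn2 encodes a secreted matricellular protein and is among the most used readouts of YAP1 and TAZ activity. In early C2 its log2 signal was 13.94, 13.58 and 12.86, in attached C2 12.80, 12.51 and 12.76, and in detached C2 10.68, 10.65 and 10.80. In D4 it was 13.85, 13.34 and 13.57 early, 13.25, 13.37 and 12.66 attached, and 10.97 and 10.70 detached. The 5 detached RNAs were low and close together, and none overlapped with the other 12. Attached and early RNAs overlapped in D4, while in C2 the lowest early RNA lay just above the highest attached one. The detached state was 4.33 times lower than the attached state, a difference of -2.12 (SE 0.196), with -1.98 in C2 and -2.25 in D4. Attached minus early was -0.63 (SE 0.185), detached minus early -2.75 and late minus early -1.69 (SE 0.163). By group mean the order was early, attached, detached in both lines.

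Ccn1 encodes another secreted protein of the same family. Its brightest probe set read 11.93, 11.35 and 12.12 in early C2, 11.60, 11.24 and 11.15 in attached C2, and 9.62, 9.92 and 10.49 in detached C2. In D4 it read 12.73, 12.59 and 12.19 early, 11.84, 12.34 and 11.03 attached, and 10.16 and 10.37 detached. Again all 5 detached RNAs lay below the other 12, and attached and early RNAs overlapped. Detached minus attached was -1.39 (SE 0.241), attached minus early -0.62 (SE 0.227) and late minus early -1.32 (SE 0.201). The second MOE430A probe set gave -1.52, -0.40 and -1.17 for these differences. The pair on MOE430B, where a second chip lot held early RNAs only, had larger errors, and their detached RNAs overlapped the others. On them detached minus attached was -1.50 (SE 0.551) and -0.70 (SE 0.734). Attached minus early was 0.12 (SE 0.519) and 0.28 (SE 0.692), above 0 where the MOE430A probe sets were below it, and late minus early was -0.63 (SE 0.459) and -0.07 (SE 0.612). D4 was higher than C2 by 0.46 (SE 0.193), and Ccn1 was not called for that difference.

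Ankrd1 encodes an ankyrin-repeat protein that shuttles between the sarcomere and the nucleus in muscle and is a common YAP1 target elsewhere. On its probe set 1420991_at the log2 signals were 9.69, 9.66 and 9.46 in early C2, 7.84, 9.06 and 9.08 in attached C2, and 5.68, 6.76 and 5.40 in detached C2. In D4 they were 10.14, 6.96 and 9.85 early, 8.39, 7.98 and 8.41 attached, and 6.25 and 5.03 detached. Early D4 replicate 2 was far below its group and still above every detached RNA. Detached minus attached was -2.67 (SE 0.50) here and -1.29 (SE 0.433) on the brighter probe set 1420992_at, on which the highest detached value, 8.18, overlapped the lowest of the others, 7.51. Both probe sets were dim, above the array median on 5 and 3 of the 17 arrays, so the sizes of these differences are uncertain.

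Amotl2 encodes an angiomotin-like scaffold at cell junctions that binds YAP1 and is itself a target. Its log2 signals were 12.58, 12.50 and 12.63 in early C2, 12.62, 12.50 and 12.29 in attached C2, and 10.97, 10.78 and 11.46 in detached C2. In D4 they were 13.09, 12.79 and 12.49 early, 11.86, 12.55 and 11.98 attached, and 11.11 and 10.66 detached. Early and attached C2 were nearly level, at a difference of -0.11 (SE 0.237), and the detached RNAs of both lines stood below all others. Detached minus attached was -1.32 (SE 0.177), a 2.5-fold lower signal, and attached minus early was -0.38 (SE 0.167).

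Axl encodes a receptor tyrosine kinase for the ligand GAS6. Its brighter probe set read 10.53, 10.74 and 11.06 in early C2, 10.12, 10.33 and 10.71 in attached C2, and 8.57, 7.89 and 8.80 in detached C2. In D4 it read 12.32, 10.39 and 11.40 early, 9.81, 10.30 and 10.03 attached, and 8.52 and 8.80 detached. All detached RNAs were below all others, and in D4 every attached RNA was also below every early one. Detached minus attached was -1.68 (SE 0.287) and attached minus early -0.86 (SE 0.271). A second, dimmer probe set gave -0.60 and -0.28, with overlapping RNAs.

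Yap1 encodes the coactivator itself. Its brighter probe set read 12.93, 12.96 and 12.61 in early C2, 12.41, 12.62 and 13.14 in attached C2, and 12.67, 12.93 and 12.64 in detached C2. In D4 it read 13.04, 13.33 and 12.89 early, 12.72, 12.71 and 12.82 attached, and 12.54 and 12.85 detached. In C2 the 3 states overlapped, and in D4 every late RNA lay below every early one. Detached minus attached was -0.01 (SE 0.155) and late minus early -0.23 (SE 0.129), with -0.10 (SE 0.179) in C2 and -0.37 (SE 0.186) in D4. The other Yap1 probe set gave 0.21 for detached minus attached.

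Wwtr1 encodes TAZ. Its brightest probe set lay between 10.77 and 10.99 in the 6 early RNAs, between 10.34 and 10.74 in the 6 attached and between 10.47 and 10.64 in the 5 detached. Every late RNA was thus below every early RNA, by little, and the late states overlapped. Attached minus early was -0.28 (SE 0.107) and detached minus attached -0.05 (SE 0.113). On the probe set 1417817_a_at the detached RNAs, at 9.57 to 10.09, lay below the other 12, the lowest of which read 10.12, and detached minus attached was -0.33 (SE 0.135). The probe sets of Wwtr1 therefore differed on whether the late states were apart.

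Tead1 and Tead2 encode DNA-binding partners of YAP1 and TAZ. Tead2 lay between 10.55 and 11.46 in early, 10.32 and 11.37 in attached and 10.87 and 11.19 in detached RNAs, and late minus early was -0.01 (SE 0.173). The bright Tead1 probe set on MOE430B lay between 13.84 and 14.55, 13.47 and 14.33, and 13.87 and 14.04 in the same order, with late minus early of -0.16 (SE 0.160). The dimmer one on MOE430A gave -0.39 (SE 0.293). Over both lines together the states overlapped for all 3 probe sets.

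Lats2 encodes a kinase that restrains YAP1 and is induced by it. Its single tested probe set was noisy, between 6.18 and 9.86 in early, 8.35 and 10.72 in attached and 6.86 and 9.01 in detached RNAs, and detached minus attached was -1.02 (SE 0.562). On 1 of the 5 dim probe sets, 1439441_x_at, the detached RNAs lay between 6.15 and 6.88 and all others at 7.26 or above. By group mean, detached lay below attached in both lines on every Lats2 probe set, the dim ones included. On all but 1439441_x_at the detached RNAs overlapped the others. With attached minus early at 0.57 (SE 0.530) on the tested probe set and its groups overlapping, no full order of the states could be read for Lats2.

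**Figure D2:**
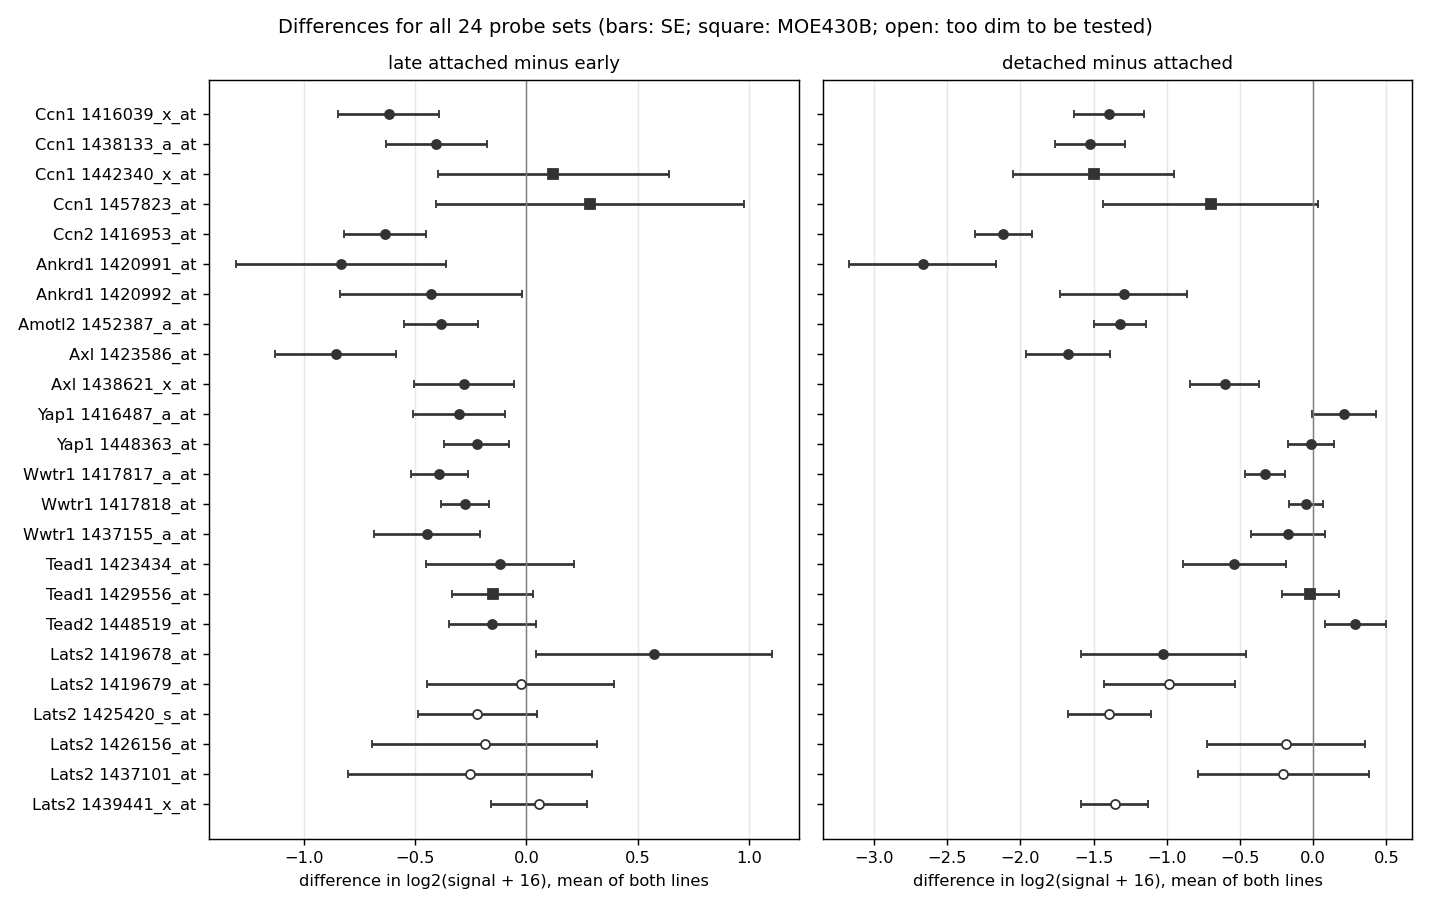
Differences in log2(signal + 16) for all 24 probe sets, averaged over both lines, for attached minus early (left) and detached minus attached (right), with bars of 1 SE. On the right the probe sets of Ccn2, Ccn1, Ankrd1, Amotl2 and Axl lie left of 0, down to -2.67, and those of Yap1 and Tead2 lie at -0.01 to 0.29.

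Of the 19 tested probe sets, 7 were called lower in late than in early passage, for Ccn1, Ccn2, Ankrd1, Amotl2, Axl and Wwtr1, and none higher. Over all tested probe sets 1.14% were called lower in that comparison. The median difference over the 19 was -0.56, against -0.026 over all. In detached minus attached 6 were called lower, for Amotl2, Ankrd1, Axl, Ccn1 and Ccn2, against 0.198% of all probe sets, with medians of -0.70 and 0.01. In detached minus early 9 were called lower, against 1.59%. In attached minus early limma called none of the 19, while 6 had an unadjusted p under 0.05 and 16 lay below 0; 0.056% of all probe sets were called lower. All 5 detached RNAs lay below the other 12 for 7 of the 19 probe sets, against 0.402% of all tested. The counts depended on single RNAs. Detached minus attached gave 2 calls among the 19 without detached D4 replicate 1 or without detached D4 replicate 3, and 3 without attached C2 replicate 2, where 0.0724%, 0.145% and 0.0823% of all probe sets were called lower. Late minus early gave 6 to 8 whichever RNA was left out, where 0.504% to 1.29% of all probe sets were called lower. With the fibroblast list as a covariate limma called no probe set at all, so none of the 19, in late minus early, attached minus early, detached minus early and detached minus attached, and 1, 0, 1 and 1 of the 19 had an unadjusted p under 0.05. Since these values chose the genes, the counts describe them and support nothing further. The comparisons with early share their early RNAs, and those with attached share the attached RNAs.

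The lines did not separate these genes by any call. In D4 minus C2 none of the 19 was called and 2 had an unadjusted p under 0.05. None of the 30373 probe sets was called by limma in that comparison (0%), and 1989 had an unadjusted p under 0.05. For the difference between lines in the late minus early change, none of the 19 was called and none had an unadjusted p under 0.05. Over all probe sets limma called 1 of 30373 for that difference (0.00329%), and 6.39% had an unadjusted p under 0.05, so no call among 19 is near the background. Late minus early was -1.76 in C2 and -1.63 in D4 for Ccn2, -1.13 and -1.50 for Ccn1, and -0.81 and -1.28 for Amotl2. For Ankrd1 it was -1.45 and -0.70, a difference of 0.75 (SE 0.722). For Lats2 the lines had opposite signs, 0.91 in C2 and -0.79 in D4, a difference of -1.70 (SE 0.937).

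Some arrays of different states were processed in the same fluidics run, which allows a comparison within a run. In 1 run of MOE430A, detached C2 (n = 2) lay below early C2 (n = 2) by 3.03 for Ccn2, with means of 10.72 and 13.76. A different run held detached D4 (n = 2) and early D4 replicates 1 and 2. There the Ccn2 means were 10.84 and 13.6, a difference of -2.76. Detached minus early was -1.44 and -2.39 for Ccn1, -1.42 and -2.06 for Amotl2, and -2.29 and -2.69 for Axl, in C2 and D4 respectively. For Yap1 it was -0.16 and -0.49. In another run, detached C2 replicate 1 lay below the 3 attached C2 RNAs by 2.01 for Ccn2 and 1.71 for Ccn1. The 3 attached D4 RNAs shared no run and no day with detached or early D4 on either array type. Attached C2 likewise shared no run with early C2 on either array type. No attached minus early difference of 1 line could therefore be read within a run. For those comparisons, the D4 value of -2.25 for Ccn2 in detached minus attached among them, run and state cannot be told apart. Without the 2 RNAs that stood apart, detached minus attached was -2.20 for Ccn2, -1.50 for Ccn1, -1.32 for Amotl2 and -1.75 for Axl.

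The fibroblast genes moved with the targets. Of the 17 tested, limma called 11 lower in late than in early passage, 8 lower in detached than in attached and 1 lower in attached than in early, with median differences of -1.49, -1.46 and -0.60. Over all 14105 tested genes, limma called 209, 38 and 14 lower in the same order. With the mean of the fibroblast list as a covariate in the fit, detached minus attached was -2.03 (SE 0.517) for Ccn2, -1.11 (SE 0.632) for Ccn1, -0.94 (SE 0.454) for Amotl2 and -1.07 (SE 0.740) for Axl, and 0.18 (SE 0.404) for Yap1. The covariate followed the states and the standard errors were larger than without it. The part of the feeders in these differences was not tested.

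**Figure D3:**
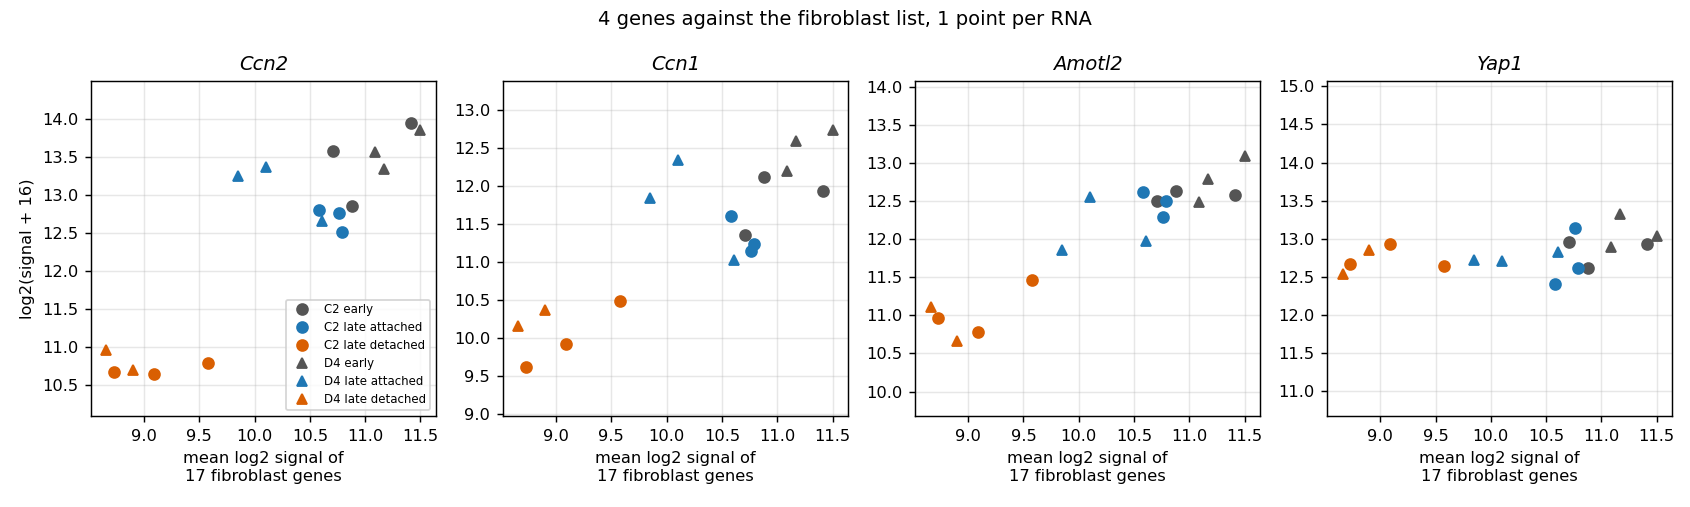
Signal of Ccn2, Ccn1, Amotl2 and Yap1, as log2(signal + 16), against the mean log2 signal of 17 fibroblast genes, with 1 point per RNA (circles C2, triangles D4). The detached RNAs lie at fibroblast means from 8.66 to 9.58 and hold the lowest signals of the first 3 genes, and Yap1 lies between 12.41 and 13.33 along the whole axis.

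Markers of other lineages were read from further lists. Of 8 tested genes of extraembryonic endoderm, in which YAP1 is also active, limma called 1 in late minus early, Dab2, an endocytic adaptor, which rose by 1.16 (SE 0.185, adjusted p = 0.00438), while its other tested probe set was at 0.10 (adjusted p = 0.843). Of 5 tested trophoblast genes none was called in late minus early, attached minus early or detached minus attached, and 1 fell in detached minus early, the keratin gene Krt7, by 2.31 (SE 0.623, adjusted p = 0.0491). Among ES cell genes Sox2 rose in late passage, by 0.71 (SE 0.159, limma adjusted p = 0.0269). Over all 14105 tested genes, limma called 87 higher in late minus early and 299 lower in detached minus early.

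The rest of the Hippo pathway was read from lists of 48 genes, of which 47 were on the arrays under a single symbol and 41 were bright enough to test. In late minus early 3 of the 41 fell and none rose, where 1.48% of all 14105 genes were called lower, and all 3 belonged to the 13 tested genes of a YAP1 and TAZ target signature. These were Ccdc80, a secreted matrix protein, Igfbp3, which binds insulin-like growth factors, and Myof, a membrane repair protein. None of the 8 tested kinases and kinase adaptors, the 12 upstream regulators and scaffolds, the 5 TEAD and VGLL genes or the 3 other CCN genes was called. Median differences were 0.00, -0.05, -0.01 and -0.64 for those lists and -0.32 for the signature, against -0.02 over all genes. In attached minus early, detached minus attached and D4 minus C2 limma called none of the 41, and 7, 11 and 4 had an unadjusted p under 0.05. Over all genes the shares with such a p were 10.6%, 11.7% and 6.2% in the same order.

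Ccdc80 had log2 signals of 9.50, 10.59 and 12.09 (lowest, median and highest of 6) in early RNAs, 7.83, 9.12 and 9.94 in attached and 5.04, 6.37 and 8.34 in detached RNAs. Detached and early RNAs did not overlap. It fell by 2.92 (SE 0.486, limma adjusted p = 0.00563) from early to late, and a second probe set fell by 2.36 (adjusted p = 0.0115). Attached minus early was -1.73 (adjusted p = 0.23). With the fibroblast list as a covariate its late minus early value was 0.59 (SE 1.02), of the opposite sign.

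Myof had signals of 7.14, 8.55 and 9.31 in early, 6.33, 7.02 and 8.33 in attached and 6.30, 6.42 and 7.28 in detached RNAs. The highest detached value exceeded the lowest early one. It fell by 1.51 (SE 0.311, limma adjusted p = 0.017), a call lost without early C2 replicate 1, early C2 replicate 3 or early D4 replicate 1, where the adjusted p reached 0.0576. With the fibroblast covariate the value was -0.73 (SE 0.899). A second Myof probe set, too dim to be tested, differed in direction, with late minus early at 0.37 (SE 0.354) and attached minus early at 0.83 (SE 0.400), against -1.23 (SE 0.351) on the first.

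Igfbp3 had signals of 8.17, 8.89 and 9.44 in early, 6.06, 7.52 and 8.24 in attached and 5.33, 7.71 and 8.02 in detached RNAs. Detached and early RNAs did not overlap, and attached and early RNAs did. It fell by 1.76 (SE 0.412, limma adjusted p = 0.032), and by fit with the fibroblast covariate the value was -2.31 (SE 1.22). The call was lost in 7 of the 17 fits that left out 1 RNA, with an adjusted p of up to 0.0902, and its probe set on MOE430B gave -0.85 (adjusted p = 0.109).

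**Figure D4:**
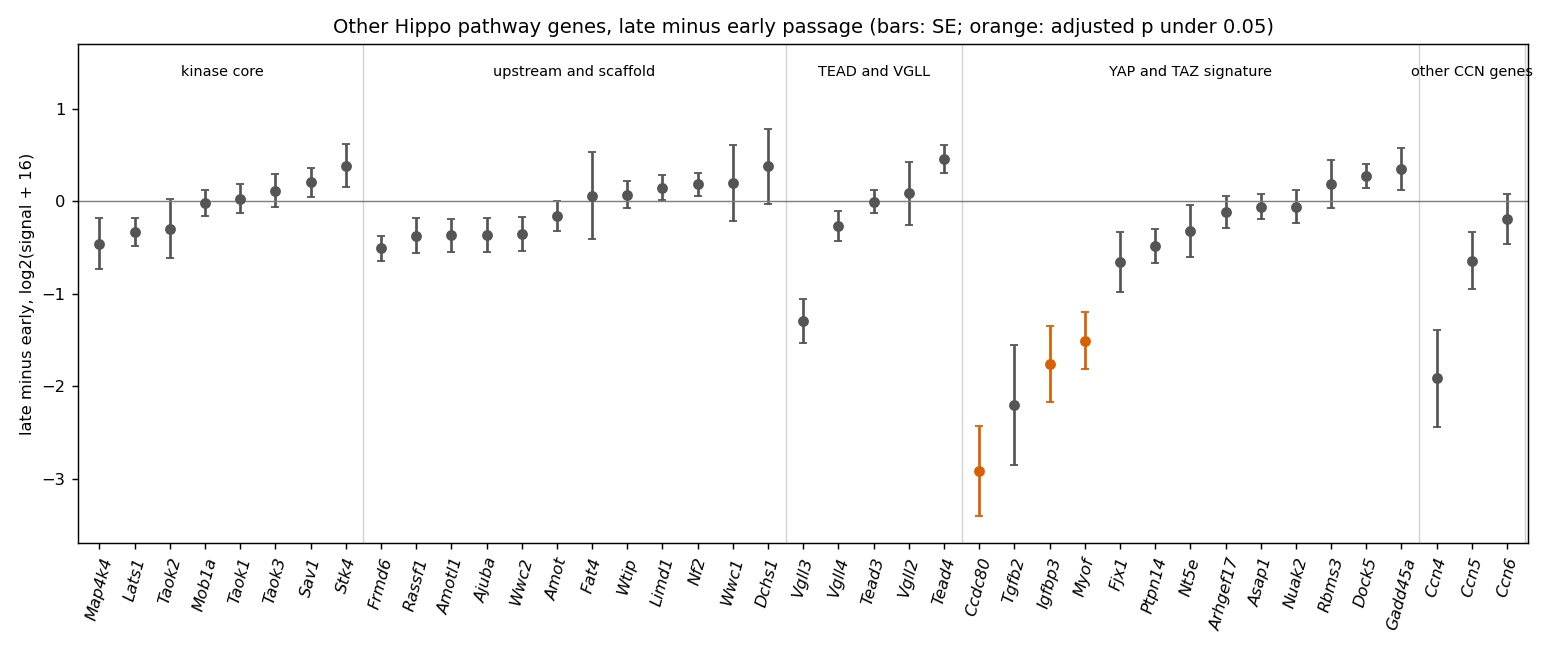
Late minus early difference in log2(signal + 16) of the 41 tested Hippo pathway genes outside the 10, grouped by list, with bars of 1 SE; orange marks an adjusted p under 0.05. The kinase core spans -0.46 to 0.38, and Ccdc80, Igfbp3 and Myof, at -2.92, -1.76 and -1.51, carry the calls.

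The kinases and regulators named by rule lay between -0.37 and 0.45 in late minus early on their representative probe sets, and none was called. Among the kinases, Lats1, the relative of Lats2, was at -0.33 (limma adjusted p = 0.477), and Stk4, which activates the LATS kinases, was at 0.38 (adjusted p = 0.594). Their adaptor Sav1 was at 0.20 (adjusted p = 0.535) and the upstream tumour suppressor Nf2 at 0.18 (adjusted p = 0.474). Other tested probe sets gave -0.11 for Sav1, 0.49 for Stk4, and 0.06, 0.04 and -0.26 for Nf2, none of them called. Stk3 had no probe set with that single symbol. The angiomotins Amot and Amotl1, relatives of Amotl2, were at -0.16 and -0.37 (adjusted p = 0.653 and 0.494). Their other tested probe sets gave -0.30 and 0.20 for Amot and -0.58 and -0.31 for Amotl1, none called. The values of Lats1, Stk4 and Amotl1 came from MOE430B, where the second chip lot held early RNAs only. Of the remaining TEAD genes, Tead3 was at -0.01 and Tead4 at 0.45, and the TEAD cofactor Vgll4 was at -0.27 (adjusted p = 0.986, 0.119 and 0.416).

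In detached minus early limma called 5 of the 41 lower, where 2.12% of all genes were called lower. These were Ccdc80 and Myof again, and Frmd6, Vgll3 and Ccn4, the last 3 named after their values were seen. Frmd6 is an upstream regulator (limma adjusted p = 0.0269), Vgll3 a TEAD cofactor (0.0379) and Ccn4 a further CCN protein (0.0479). Other tested probe sets of Vgll3 were not called (adjusted p = 0.121 and 0.106). The Vgll3 probe sets were on MOE430B, where the second chip lot held early RNAs only.

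The genes whose pattern over the 17 RNAs was most like that of a target were found by the root mean square (RMS) difference of log2 signals, each centred on its own mean, over 8639 genes on MOE430A. Nearest to Ccn1 was Amotl2, at 0.41, followed by Plk2 and Arhgdib at 0.48 and 2210409E12Rik and Col4a2 at 0.49, where the median gene was at 0.99. Nearest to Ccn2 were Arhgdib at 0.48, the fibroblast genes Bgn at 0.51 and Cdh11 at 0.57, and Ccn1 at 0.51 and Axl at 0.54, with a median of 1.23. Bgn and Cdh11 belong to the fibroblast list above, and Col4a2 encodes a basement membrane collagen. Nearest to Yap1 were Rabac1 at 0.15, Snx3 and Hprt at 0.16 and Mapre1 and Actr3 at 0.17, with a median of 0.42. For a gene as level as Yap1 this measure picks other level genes.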

How the data were processed

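The labels of 17 RNAs gave the groups. The deposited values were MAS5 signal intensities per probe set, per the submitters' processing notes. Neither its version nor detection calls are given in the sources used here. Each deposited array had a 2% trimmed mean of about 1500, so arrays were already scaled. Scanner information (other units: stations and times, per the file headers) was used to infer fluidics runs, taken as arrays logged within 30 minutes on 1 station.

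Intensities were analysed as log2(signal + 16). Tests were kept to probe sets brighter than the array median on 2 or more of 17 arrays. For each array type, limma 3.58.1 (R 4.3.3) was run with a mean for each of the 6 groups and a shared spread, and Benjamini-Hochberg adjustment was made within that type. The number of arrays limits the precision. The fit was tested on simulated data.

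The 10 genes, the lists and the tests were chosen with earlier results of these data known. Named from the pathway lists were all genes called in the first 4 comparisons and 10 fixed ones, each represented by the brightest of its tested probe sets, with MOE430A preferred. Platform symbols were brought up to date with RefSeq. The alternatives tried were a pseudocount of 64, quantile normalization, no filter or a 75th percentile filter, array weights, a replicate block, the fibroblast list as a covariate, other probe sets, and each RNA left out in turn. A fluidics run as a random block, a fit without the 2 RNAs that stood apart, and the counts of the 10 genes' calls under each alternative were chosen after seeing the data. Same-numbered RNAs did not deviate together, so replicate numbers were not taken as pairs.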

Additional observations from a re-analysis of the deposited data

How the results depend on the processing

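Of the 10 genes' 40 differences (late minus early, attached minus early, detached minus attached, D4 minus C2), none moved by more than the residual spread under a pseudocount of 64, quantile normalization, no filter, array weights, the replicate block, the run as a random block or leaving out each RNA in turn (680 values). The residual spread was wider than the standard errors of these differences, so leaving out 1 RNA could hardly move a value past it. Signs could change within it. With an RNA left out, Lats2 late minus early ran from -0.39 to 0.36 and Tead1 attached minus early from -0.34 to 0.22. Ccn2 detached minus attached ran from -2.22 to -2.05. With the fibroblast list as a covariate 10 of 40 moved, and 19 of 56 did on another probe set of the gene. Under that covariate 0 of 30373 probe sets were called in late minus early, where 1470 had an unadjusted p under 0.05. Over all probe sets, 153 to 391 were called lower in late minus early when an RNA was left out (346 with all), 0 to 39 in attached minus early (17 with all) and 22 to 125 in detached minus attached (60 with all). The lowest counts came without early D4 replicate 1, attached D4 replicate 3 and detached D4 replicate 1, and the highest without early C2 replicate 2, early D4 replicate 2 and attached D4 replicate 1. Calls among the 41 pathway genes also moved. In late minus early their count was 3, and 5 with the replicate block, 0 with the fibroblast list as a covariate (limma adjusted p of 0.99 for Myof and Igfbp3 and 0.994 for Ccdc80), and 1 to 5 when an RNA was left out (5 without early C2 replicate 2, and 1 without early C2 replicate 3 or early D4 replicate 1). In detached minus attached the count was 0, and 1 with the 75th percentile filter and 1 with array weights. The late minus early value of Ccdc80 turned to 0.59 under the fibroblast covariate, and the call of Igfbp3 was lost with no filter (adjusted p = 0.071). The 75th percentile filter left 28 of the 40 differences. The numbers of replicates did not pair the RNAs: deviations of same-numbered RNAs correlated at -0.22 to 0.18 on MOE430A, and with the replicate block 431 probe sets were called in late minus early, against 482. A chip lot or day as a random block was not run. A day held whole groups on MOE430A, and the second chip lot on MOE430B held early RNAs only. Runs were used as the block, with within-run correlations of -0.0143 on MOE430A and -0.0814 on MOE430B. That fit was therefore close to the main one and cannot stand in for a check of day or lot. Dim probe sets, those of Ankrd1 and Lats2 above all, limit the precision of their differences.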
